A study of Mus musculus with 10 samples.

Results

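Zfp931 and a family of related genes on mouse chromosome 2 are read by 6 probe sets of the array, and all 6 gave lower signal in hearts lacking the protein kinase PKCz than in wild-type hearts. The probe sets are the one annotated with Zfp931 alone, called the Zfp931 probe set here, and 1427174_at, 1429712_at, 1426558_x_at, 1436462_at and 1447977_x_at, annotated with 8, 7, 7, 6 and 4 genes. They are 6 of the 45037 non-control probe sets. The first 4 were chosen by their measured KO minus WT difference in these arrays, and the last 2 were added because their annotation includes Gm4724 and Gm14434. Their differences between genotypes are therefore given as descriptions with no test.

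The study compared littermate male SV129 mice, 32 weeks old, that were wild type (WT) or PKCZ -/- (KO). Osmotic minipumps delivered angiotensin II (AngII), the vasoconstrictor peptide of the renin-angiotensin system, at a daily dose of 432 µg per kg over 14 days, and control mice got PBS, although a second label describes the controls as non-treated. Heart RNA was hybridised to 10 one-colour Affymetrix arrays, 2 of WT PBS (title numbers 3 and 5), 3 of WT AngII (2, 3, 4), 3 of KO PBS (2, 3, 4) and 2 of KO AngII (3, 4). Nothing in the labels ties each array to its own animal, so p-values reflect only how far these samples spread, and that spread may be technical.

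For the targeted gene, the brightest of 3 Prkcz probe sets read 5.70 to 5.87 on KO and 6.23 to 6.45 on WT arrays, while both others overlapped between genotypes. The sources used here do not place these probe sets against the deletion, so they check the labels only in part. The poly-A control signal (24 probe sets for added bacterial RNAs) was low on 3 KO arrays, PBS 4 and both AngII ones, at 6.90 to 7.08 log2, against 12.86 to 13.33 elsewhere. Beta-actin, a gauge of RNA integrity, had a 3′ over 5′ log2 excess of 0.74 to 0.83 on those 3 and of 0.92 to 1.70 on the rest. Both KO AngII arrays are thus in the low spike-in group and all WT arrays in the high one, and KO PBS spans both. The 10 cardiomyocyte markers averaged 14.02 to 14.18 log2 on WT and 14.12 to 14.15 on KO arrays, so the labelled tissue was borne out. The 7 fibroblast markers averaged 9.67 to 12.61 on WT and 9.84 to 11.03 on KO arrays, and the 6 macrophage markers 8.60 to 9.73 and 8.37 to 8.70. The 5 endothelial markers averaged 8.75 to 9.20 on WT and 8.76 to 9.14 on KO, and the 4 smooth muscle markers 8.95 to 10.25 and 8.46 to 9.28. The highest WT values of the fibroblast, macrophage and smooth muscle markers were those of WT AngII 2. The other WT arrays reached 10.37, 8.92 and 9.54. Of the 3 erythroid markers 2 had a probe set with a single gene symbol, and they averaged 6.34 to 7.21 and 6.54 to 7.55. These averages join unlike levels: Hba-a1 had means of 4.49 on WT and 4.56 on KO arrays, and Alas2 9.21 and 9.545. In these bulk samples fewer cells of a type and less RNA per cell cannot be told apart, and the part of cell makeup in the results was not tested.

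Zinc-finger genes of this kind encode proteins that bind DNA through arrays of zinc-coordinating fingers. Many of them in mammals also carry a KRAB domain, which recruits TRIM28, the histone methyltransferase SETDB1 and heterochromatin proteins to silence the bound site, transposable elements among them. Such genes multiply by tandem duplication, so neighbours in a cluster can be nearly identical in sequence. An array probe then reads several of them at once, and the suffix _x_at marks probe sets with probes that can bind transcripts of other genes.

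The 6 probe sets are annotated with 20 genes, all on chromosome 2; Prkcz itself lies on chromosome 4. In the RefSeq gene order Zfp931 is the last of the 20, and the other 19 lie from 1 gene (Zfp971) to 67 genes (Gm14391) before it. Only 6 of the 20 have symbols that name them as zinc-finger genes (Zfp931, Zfp965, Zfp966, Zfp967, Zfp971 and Zfp973), and the other 14 have provisional Gm symbols. Of the 20, 19 are protein coding in RefSeq. Gm4724, Gm14308, Gm2026 and Gm14434 are annotated to each of 1427174_at, 1426558_x_at, 1436462_at and 1447977_x_at, so these 4 probe sets are not independent readings. The 7 genes of 1429712_at are annotated to no other of the 6, nor is Zfp931. Which of the annotated genes gives the signal of a shared probe set cannot be told from these arrays.

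Promoter windows show how alike these genes are, and 3 of them are printed here. RefSeq windows of assembly GRCm38.p6 (250 bases before to 50 after the gene start) were held for 19 of the 20 genes. The assembly is of strain C57BL/6J, whereas the mice are labelled SV129. Zfp931 is shown as the gene annotated alone to a probe set. Gm14434 is shown because its window is letter for letter that of Gm4724, Gm2026 and Gm14308 as well. Zfp966 is shown because it stands for 1429712_at and shares its window with Zfp967. The windows lie at chr2:178078376-178078675, chr2:176486700-176486999 and chr2:175931051-175931350, each on the minus strand. They are written 5′ to 3′, and capitals mark CCAAT on either strand (CCAAT or ATTGG).
Zfp931: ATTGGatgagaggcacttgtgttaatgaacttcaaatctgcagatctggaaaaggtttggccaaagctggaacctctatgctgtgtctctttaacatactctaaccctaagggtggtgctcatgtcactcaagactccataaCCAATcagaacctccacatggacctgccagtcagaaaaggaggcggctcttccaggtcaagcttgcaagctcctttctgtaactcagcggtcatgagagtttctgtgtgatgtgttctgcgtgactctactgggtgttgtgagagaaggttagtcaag
Gm14434: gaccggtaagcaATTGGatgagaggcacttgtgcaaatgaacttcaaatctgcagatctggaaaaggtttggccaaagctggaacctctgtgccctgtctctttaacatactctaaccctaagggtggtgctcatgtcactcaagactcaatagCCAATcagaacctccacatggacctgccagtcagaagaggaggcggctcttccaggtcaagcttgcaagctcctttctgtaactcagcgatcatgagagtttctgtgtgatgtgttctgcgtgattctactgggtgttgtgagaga
Zfp966: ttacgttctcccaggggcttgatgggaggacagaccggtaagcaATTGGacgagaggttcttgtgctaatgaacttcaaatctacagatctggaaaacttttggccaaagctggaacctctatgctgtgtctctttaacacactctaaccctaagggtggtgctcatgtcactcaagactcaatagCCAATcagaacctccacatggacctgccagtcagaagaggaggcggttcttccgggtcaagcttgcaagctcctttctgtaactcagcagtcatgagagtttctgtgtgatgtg

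Between pairs of the 19 windows, the identical bases after alignment made up 71.7% to 100% of 300, with a median of 88.7% over 171 pairs, and 7 pairs were identical throughout. Part of the shortfall from full identity is an offset of the annotated starts, which pushes matching sequence out of the window. Zfp931 and Gm14434 shared 278 identical bases and differed at 10 aligned positions. The window closest to that of Zfp931 was Gm14305 (96.3%) and the farthest was Gm14391 (71.7%). CCAAT occurred 2 or more times in 19 of 19 windows, against 11.7% of the 32851 promoter windows in the table, and at least once in 37.4% of them. TATAAA and GGGCGG, searched on both strands like CCAAT and with no overlap with it, occurred in 0 of 19, against 13.6% and 35.7%. A match is a description of the letters only. Since the 19 windows are so alike, they do not count as 19 separate observations, and enrichment was not tested. Words of 20 bases from the Zfp931 window recurred in the windows of 33 other genes, 30 of them on chromosome 2, and these included the 18 other annotated genes with a window. The windows of the flanking genes Sycp2 and Edn3 shared 0 such words with any of the 19.

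**Figure D1:**
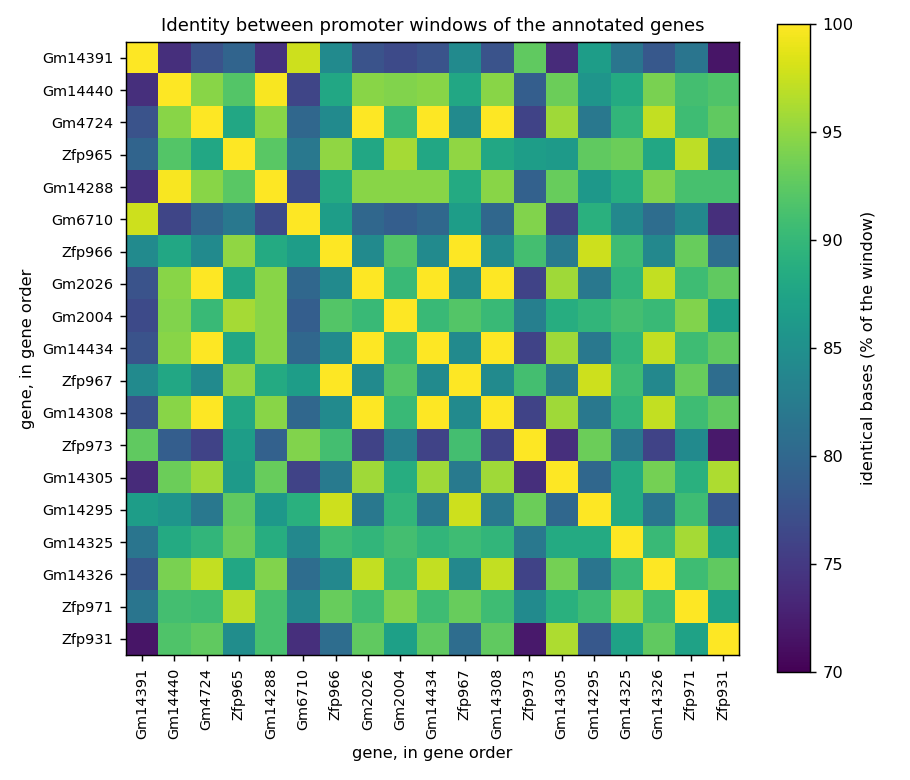
Identity between the promoter windows of 19 genes annotated to the 6 probe sets, with genes in gene order on both axes and colour giving identical bases as percent of the 300-base window (scale from 70 to 100). Bright squares off the diagonal mark the identical windows, such as Gm4724, Gm2026, Gm14434 and Gm14308, and the darkest cells lie between Zfp931 and Gm14391 (71.7%).

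Expression was compared between genotypes first, as a description. The values are log2 on the RMA scale, on which 1 unit is a doubling. Zfp931 read 8.11 and 8.003 in WT PBS, 7.87, 7.67 and 7.75 in WT AngII, 5.74, 6.48 and 6.36 in KO PBS, and 5.98 and 5.80 in KO AngII. Every KO array lay below every WT array, by 1.20 at the closest. The difference averaged over treatments was −1.87 ± 0.14 (SE), 3.65-fold.

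The probe set 1427174_at read 7.51 and 7.70 in WT PBS, 7.59, 7.36 and 7.35 in WT AngII, 4.68, 4.86 and 4.43 in KO PBS, and 4.83 and 4.63 in KO AngII. Its averaged difference was −2.83 ± 0.11, 7.09-fold, with 2.49 between the closest arrays of the genotypes. The probe set 1429712_at, annotated with Zfp965, Zfp966, Zfp967, Zfp971, Zfp973, Gm14440 and Gm14288, showed the widest difference of the 6. It read 8.57 and 8.32 in WT PBS, 7.82, 8.38 and 8.32 in WT AngII, 4.82, 5.25 and 5.06 in KO PBS, and 5.07 and 5.01 in KO AngII. The averaged difference was −3.27 ± 0.14, 9.64-fold. WT AngII 2 was the lowest WT array here, still 2.58 above the highest KO array.

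For 1426558_x_at the values were 8.31 and 8.24 in WT PBS, 8.22, 7.99 and 8.25 in WT AngII, 5.48, 5.95 and 5.75 in KO PBS, and 5.61 and 5.92 in KO AngII. Its averaged difference was −2.47 ± 0.12, 5.54-fold. The added probe sets differed less. For 1436462_at the values were 7.03 and 7.002 in WT PBS, 7.001, 6.83 and 6.70 in WT AngII, 6.205, 6.30 and 6.17 in KO PBS, and 6.00 and 5.83 in KO AngII, a difference of −0.86 ± 0.10. The dimmest, 1447977_x_at, read 4.42 and 4.51 in WT PBS, 5.36, 4.79 and 4.74 in WT AngII, 3.61, 3.79 and 3.76 in KO PBS, and 3.86 and 3.92 in KO AngII, a difference of −0.91 ± 0.11. The genotypes did not overlap for 6 of 6 probe sets, where 0.613% of all probe sets had every KO array below every WT array and 0.822% every one above; since the genotype contrast chose the members, nothing is read from this. By size of the averaged fall among all 45037 probe sets, 1429712_at, 1427174_at and 1426558_x_at stood 1st, 2nd and 3rd, and Zfp931 6th. The added pair, 1447977_x_at and 1436462_at, stood 82nd and 90th. This contrast chose the members other than the added pair, so nothing is read from these ranks either.

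**Figure D2:**
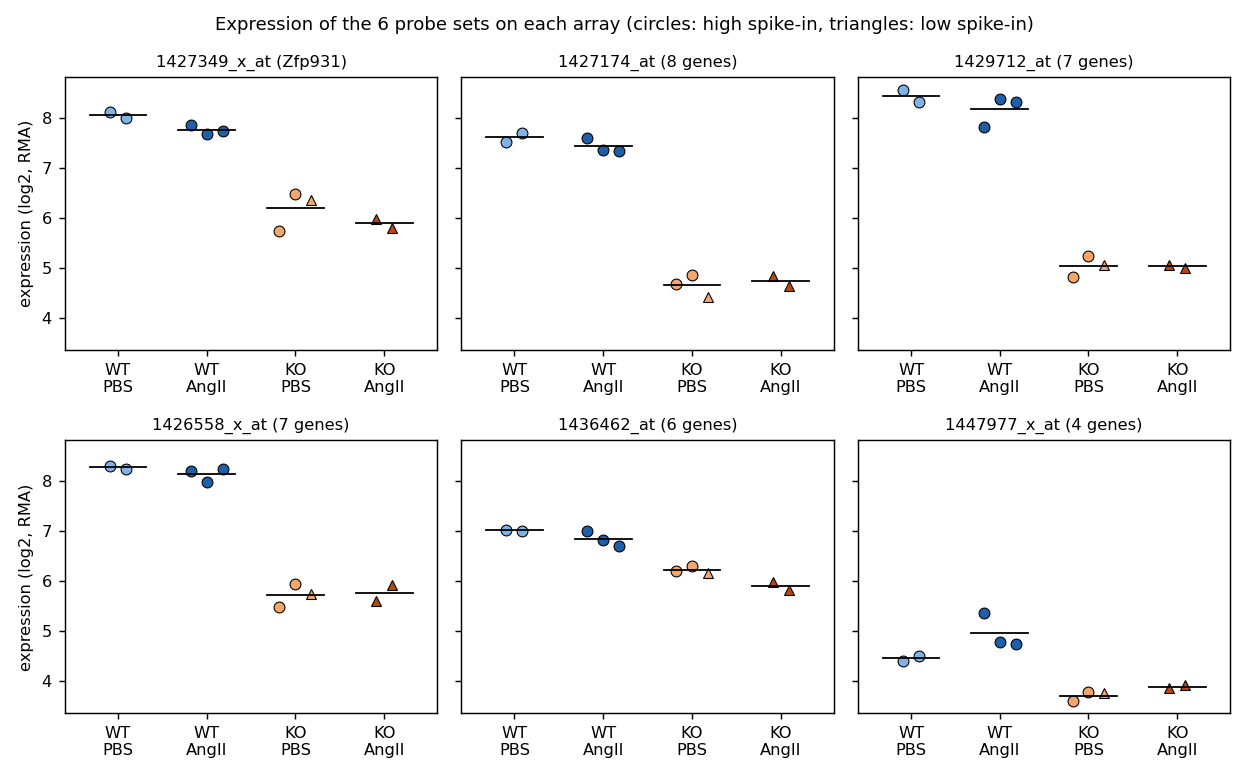
Log2 RMA expression of each of the 6 probe sets on the 10 arrays, 1 panel a probe set, with groups on the x axis, a point for each array, a line at the group mean, circles for arrays with high and triangles for arrays with low spike-in signal. In each panel the 5 KO arrays lie below the 5 WT arrays, and KO PBS 4, with low spike-in signal, lies among the KO arrays.

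Among all non-control probe sets, the WT means stood at the 77.1st (Zfp931), 72.5th (1427174_at), 81.7th (1429712_at), 80.9th (1426558_x_at), 63.9th (1436462_at) and 20.3rd (1447977_x_at) percentile. The KO means stood at the 47.1st, 17.8th, 25.0th, 40.1st, 47.7th and 2.8th. As a guide to the signal of transcripts that heart should lack, 11 measured genes of retina, pancreas, pituitary, lens and enamel averaged from 4.17 (the pituitary hormone subunit gene Fshb) to 7.83 (the insulin gene Ins2), with a median of 5.55. The KO values of the 6 probe sets, 3.61 to 6.48, reached no higher than this range. On single arrays Ins2 reached 8.21. The highest WT values of 1426558_x_at (8.31) and 1429712_at (8.57) lay above that, and the highest of Zfp931 (8.11) did not. The WT mean of Zfp931 was 7.88, close to the 7.83 of Ins2. Signal of different probe sets depends on their probes, so these levels give no order between genes.

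The genotype difference was present under both treatments. Under PBS it ranged over the 6 from −3.40 ± 0.19 (1429712_at) to −0.75 ± 0.16 (1447977_x_at), and under AngII from −3.14 ± 0.19 (1429712_at) to −0.93 ± 0.14 (1436462_at). For Zfp931 it was −1.86 ± 0.20 under PBS and −1.87 ± 0.20 under AngII. With the spike-in group as a block, which under PBS compares KO PBS 2 and 3 with the WT arrays of the same high signal, the PBS differences were −1.95 ± 0.22 for Zfp931, −2.84 ± 0.16 for 1427174_at, −3.41 ± 0.22 for 1429712_at, −2.57 ± 0.20 for 1426558_x_at, −0.76 ± 0.16 for 1436462_at and −0.77 ± 0.18 for 1447977_x_at. The blocked AngII differences ranged from −3.16 ± 0.34 (1429712_at) to −0.85 ± 0.24 (1436462_at) and rest on KO PBS 4 as the link between spike-in groups. KO arrays of both spike-in groups thus read low.

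**Figure D3:**
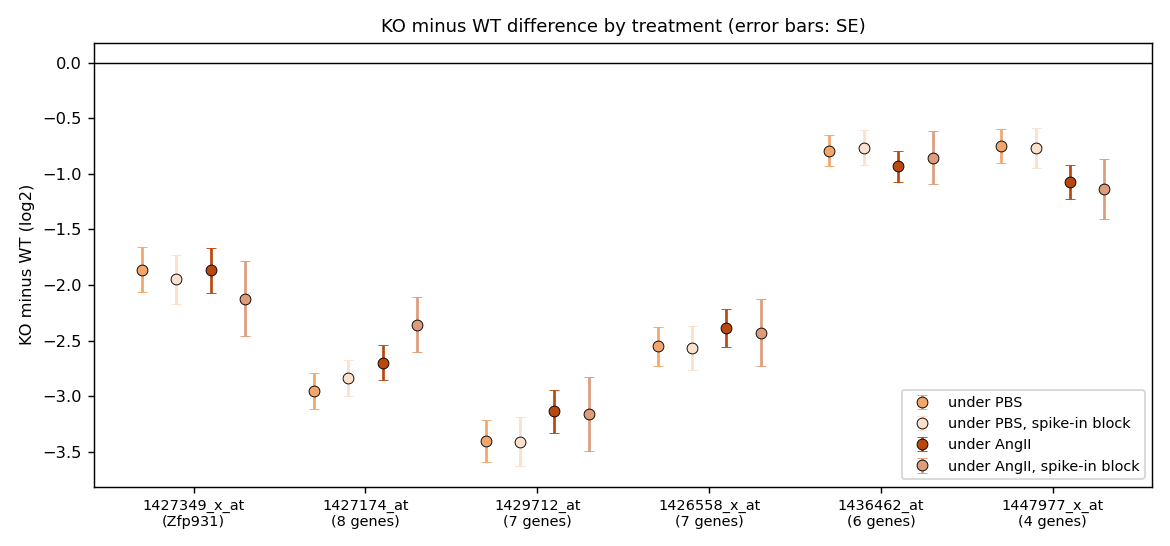
KO minus WT difference in log2 for the 6 probe sets on the x axis, under PBS and under AngII, each without and with the spike-in group as a block; points are fitted differences and error bars their SE over 10 arrays. All points lie below 0, from −3.41 to −0.75.

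For each of the 6 probe sets the SD within a genotype was smaller than the size of the averaged genotype difference. The SD over the 5 WT arrays was 0.13 to 0.37 and over the 5 KO arrays 0.12 to 0.33. The range could be wider: for 1447977_x_at the WT arrays spanned 0.94, beside an averaged difference of −0.91. KO PBS 3 was the highest KO PBS array for all 6 probe sets, by 0.20 to 0.28 above its group mean in 4 of them and 0.07 to 0.08 in the others (1436462_at and 1447977_x_at). KO PBS 2 read 0.45 below its group mean for Zfp931, 0.25 below for 1426558_x_at and 0.22 below for 1429712_at. WT AngII 2, the array with the highest fibroblast marker signal (12.61), read 0.39 above its group mean for 1447977_x_at and 0.35 below for 1429712_at.

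The effect of AngII on the same probe sets was a measure the choice of members did not use. In limma's moderated test with Benjamini-Hochberg adjustment over all 45037 probe sets, 0 of 6 passed an adjusted p of 0.05 in WT, in KO, averaged over genotype or for the difference between the genotypes' effects. Over all probe sets 0% passed in each of these 4 comparisons. At an unadjusted p under 0.05 the counts were 1 of 6 in WT (5.23% of all probe sets), 1 of 6 in KO (4.57%), 2 of 6 averaged (9.62%) and 0 of 6 for the difference between effects (1.64%).

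Zfp931 read lower under AngII in WT, with a difference of −0.30 ± 0.20 (limma adjusted p = 0.93). Every WT AngII array lay below every WT PBS array, as was so for 11.3% of all probe sets. In KO the difference was −0.30 ± 0.20 (limma adjusted p = 0.892), and KO PBS 2 lay below both KO AngII arrays. Without KO PBS 2 the KO difference was −0.53, and without KO PBS 3 it was −0.16. Averaged over genotype it was −0.30 ± 0.14 (exact permutation p = 0.08, two-sided, with treatment shuffled within genotype over 100 arrangements, of which the smallest possible p is 0.01). The difference between the effects in KO and in WT was −0.005 ± 0.29.

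The 2 probe sets added by annotation went opposite ways, although the 4 genes of 1447977_x_at are all annotated to 1436462_at too. For 1447977_x_at every AngII array lay above every PBS array of its genotype, with differences of 0.50 ± 0.16 in WT and 0.17 ± 0.16 in KO, and the averaged effect was 0.34 ± 0.11 (exact permutation p = 0.02, limma adjusted p = 0.483). For 1436462_at every AngII array lay below every PBS array of its genotype, with differences of −0.17 ± 0.14 in WT and −0.32 ± 0.14 in KO, and the averaged effect was −0.24 ± 0.10 (exact permutation p = 0.02, limma adjusted p = 0.497). Of all probe sets, 8.4% had every WT AngII array above and 11.3% below every WT PBS array, and in KO 13.7% and 10.8%. In WT the effect of 1447977_x_at was 0.30 without WT AngII 2, and that of 1436462_at was −0.10 without WT AngII 4. Neither effect passed the adjusted threshold, and the permutation was run on 6 probe sets. The values of 1447977_x_at, 3.61 to 5.36, all lay below 5.55, the median of the guide to transcripts that heart should lack. In KO both AngII arrays have low spike-in signal; with that group as a block, the KO effects were 0.13 ± 0.22 and −0.26 ± 0.19.

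The remaining 3, with the widest genotype differences, had AngII differences of less than 2 SE in either direction. In WT the differences were −0.18 ± 0.16 for 1427174_at, −0.27 ± 0.19 for 1429712_at and −0.13 ± 0.17 for 1426558_x_at. Single arrays moved these: 1429712_at stood at −0.092 without WT AngII 2 and −0.145 without WT PBS 3, 1427174_at at −0.27 without WT PBS 3 and −0.081 without WT PBS 5, and 1426558_x_at at −0.044 without WT AngII 3. In KO they were 0.08 ± 0.16, −0.001 ± 0.19 and 0.04 ± 0.17, and with the spike-in block 0.31 ± 0.20, −0.02 ± 0.27 and 0.01 ± 0.24. Exact permutation p-values of the averaged effects were 0.69, 0.5 and 0.72.

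**Figure D4:**
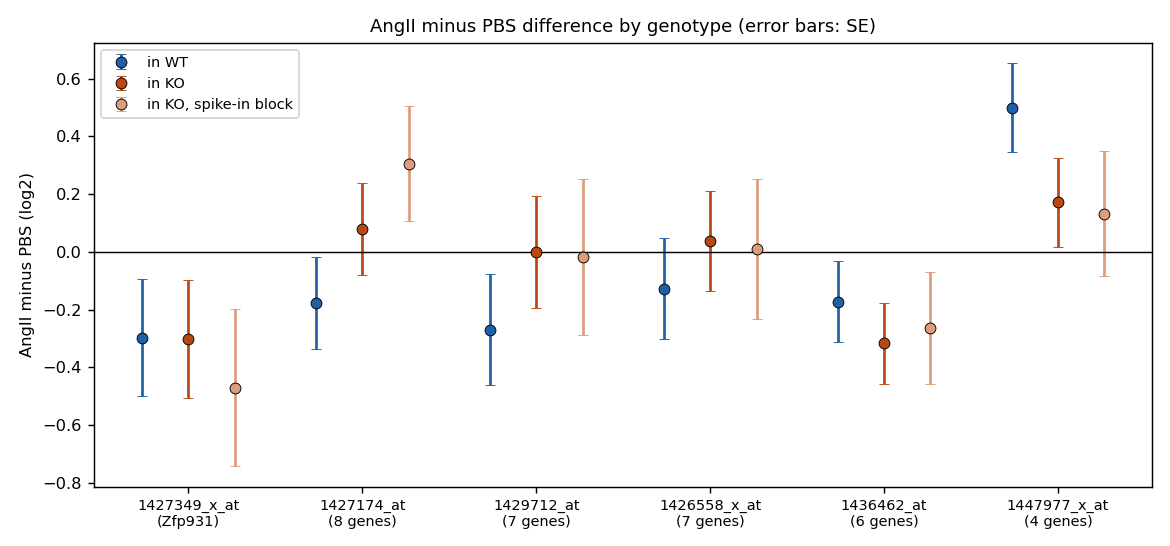
AngII minus PBS difference in log2 for the 6 probe sets on the x axis, in WT, in KO, and in KO with the spike-in group as a block; points are fitted differences and error bars their SE over 10 arrays. Zfp931 lies near −0.30 in both genotypes, 1447977_x_at reaches 0.50 in WT, and the lowest point is the blocked KO value of Zfp931 at −0.47.

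The genes around the cluster were examined next, to see whether the lower KO signal extended along the chromosome. A further 218 probe sets read only genes within 200 positions of Zfp931 in the gene order. In the KO against WT comparison averaged over treatments 0 of them passed in limma, lower or higher, against 0.0444% of all probe sets (0.0333% lower, 0.0111% higher). At an unadjusted p under 0.05 stood 29 of 218, against 12.4% of all. Their differences ranged from −0.61 to 0.55 with a median of 0.05, and the median of all probe sets was 0.03. The 6 members, from −3.27 to −0.86, all lay outside that range, but the same contrast chose 4 of them, so nothing is read from this.

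Between Gm14391 and Zfp931 only 1 of these probe sets was found, that of Zfp972, another zinc-finger gene 5 positions from Zfp931. It read 4.06 to 4.26 on WT and 4.15 to 4.52 on KO arrays, a difference of 0.15 ± 0.07 (limma adjusted p = 0.404). That WT level is at the low end of the guide to absent transcripts (4.17 to 7.83), leaving little room for a fall. On the far side of Zfp931, the actin regulator gene Phactr3 differed by 0.09 ± 0.18, the meiotic synaptonemal complex gene Sycp2 by 0.06 ± 0.09 and the phosphatase-targeting gene Ppp1r3d by 0.03 ± 0.13. Their WT means were 5.49, 4.09 and 7.96, and only that of Ppp1r3d lay above the guide's range. On the other side the nearest measured gene was Edn3, the ligand endothelin 3, whose 4 probe sets differed by 0.20 to 0.55. The 5 probe sets of smallest unadjusted p among the 218 were those of Zbtb46, a transcription factor of dendritic cells (−0.41 ± 0.10, limma adjusted p = 0.246), Edn3 (0.55 ± 0.14, 0.251), the mitotic kinase Aurka (0.44 ± 0.11, 0.257), Tshz2, a zinc-finger homeobox factor (−0.61 ± 0.16, 0.268), and Helz2, a helicase (−0.47 ± 0.13, 0.278). With the spike-in block they stood at −0.32, 0.72, 0.43, −0.29 and −0.17. Weighting arrays by their estimated quality raised the calls over the whole array to 1562 probe sets (3.47%). At that setting 8 of the 218 were called, a share near that background, with Zbtb46, Aurka, Tshz2 and Helz2 among them (adjusted p 0.0222 to 0.0287).

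**Figure D5:**
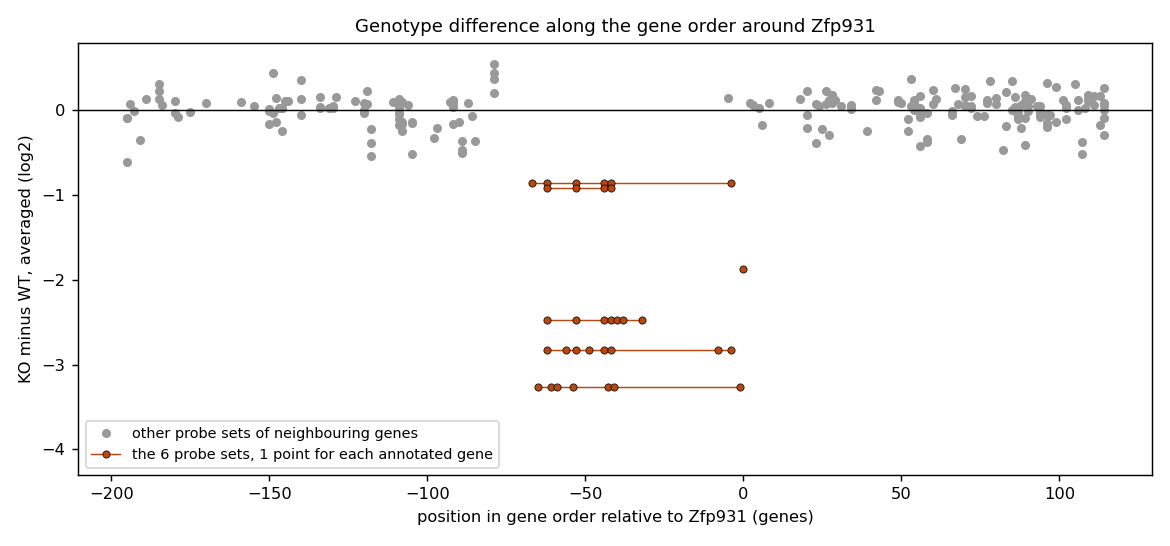
KO minus WT difference in log2, averaged over treatments, against position in the gene order relative to Zfp931 (in genes, not to distance). Grey points are the 218 other probe sets, and linked points are the 6 probe sets, with a point for each annotated gene; the grey points lie between −0.61 and 0.55 and the linked ones between −3.27 and −0.86.

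A list of corepressor and chromatin genes was read as a group. It held Trim28 and Setdb1, broader chromatin genes such as Dnmt1, Uhrf1 and Daxx, and the zinc-finger gene Zfp57. Of 22 listed genes 21 were measured, and in KO against WT averaged over treatments 0 passed in limma in either direction, with 3 at an unadjusted p under 0.05 (12.4% of all probe sets). Of the 21, 16 lay below 0 with a median of −0.08, beside 42.4% below 0 and a median of 0.03 over all probe sets. Trim28, the corepressor that the KRAB domain binds, read 9.74 to 9.89 on WT and 9.74 to 10.06 on KO arrays, a difference of 0.07 ± 0.09. Setdb1 differed by −0.08 ± 0.13. The 3 leading members were Morc3, an ATPase of heterochromatin (−0.47 ± 0.13, limma adjusted p = 0.277), the chromatin remodeller Atrx (−0.43 ± 0.12, 0.289) and the deacetylase Hdac2 (−0.24 ± 0.10, 0.394), at −0.37, −0.34 and −0.20 with the spike-in block. With array weights, where 3.47% of all probe sets were called, 2 of the 21 were called, Morc3 (−0.45, adjusted p = 0.0242) and Atrx (−0.39, 0.0378). For AngII, 0 of 21 passed in WT or in KO, with 0 (5.23% of all probe sets) and 4 (4.57%) at an unadjusted p under 0.05.

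To see which other transcripts followed the same profile, each probe set was centred on its mean over the 10 arrays and its root mean square distance in log2 from Zfp931 was taken. The nearest of all was 1426558_x_at (0.38). The other members stood at rank 9 (1436462_at, 0.53), 16 (1447977_x_at, 0.56), 18 (1427174_at, 0.56) and 912 (1429712_at, 0.75); the distance takes account of the size of a difference as well as its shape. The 8 nearest probe sets outside the 6 read Thrap3, a cofactor of splicing and transcription (0.43), Gde1, a glycerophosphodiester phosphodiesterase (0.44), the deacetylase Sirt1 (0.46), an unnamed transcript (0.47), the LIM-domain cofactor Ldb2 (0.50), the secreted guidance protein Ntn4 (0.53), Pwwp3b (0.53) and the single-strand DNA binding protein Nabp1 (0.53). The 7 named genes lie on chromosomes 4, 7, 10, 5, 10, X and 1 in this order, none on chromosome 2. Thrap3 read 8.80 to 9.24 on WT and 7.36 to 8.38 on KO arrays, and Gde1 9.45 to 9.91 and 8.23 to 8.73. Sirt1, which read 7.04 to 8.15 on WT and 6.36 to 7.03 on KO arrays, came close to overlapping between genotypes. The genotypes overlapped for the unnamed transcript (WT from 6.57, KO up to 6.70), for Ldb2 (WT from 6.16, KO up to 6.37) and for Pwwp3b (WT from 5.32, KO up to 5.53), and did not for Ntn4 and Nabp1. A profile in which KO lies below WT dominates this likeness, and nothing is read from it on shared function or control.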

How the data were processed

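The deposited values are log2 expression per probe set; the submitters' processing notes name RMA, which corrects background, equalises array distributions and summarises probes, and which compresses differences between dim probe sets. No RMA version is stated. Array medians were 6.13 to 6.24 and correlations between arrays ran from 0.9734 to 0.9951; precision rests on 10 arrays. Left out were 64 control probe sets. Gene names come from GEO's platform annotation and the RefSeq table of GRCm38.p6, which also gave the gene order. Differences (± SE) came from limma 3.58.1 in R 4.3.3: 1 mean per group, eBayes with a trend on expression, two-sided, 6 residual degrees of freedom, tested on simulated data.

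The members and gene lists were chosen with earlier results of these data known. Named were all members, of the neighbours and of the corepressor list each called gene and otherwise the 5 and 3 with the smallest unadjusted p, Trim28, Setdb1 and Prkcz, and the 8 probe sets nearest in profile. Spike-in groups were split at the midpoint of the control signal. Where a listed gene had several probe sets, the brightest on average among those with 1 symbol stood for it. Genes with no such probe set count as not measured. Alternatives are given at the end.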

Additional observations from a re-analysis of the deposited data

How the results depend on the processing

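Under the alternatives to the settings used (equal array medians, repeated quantile normalization, dim probe sets left out, eBayes without trend or robust, array weights, title number or spike-in group as a block, high spike-in arrays only, groups compared only, each of 10 arrays left out), all 336 KO minus WT values of the 6 probe sets stayed below 0, and 329 moved by less than 1 SD. The median of the 6 averaged differences ranged from −2.23 to −2.08 with arrays left out.
No alternative called an AngII effect for any of the 6 probe sets that it kept. Leaving out dim probe sets removed 1427174_at and 1447977_x_at, so these were not tested at that setting. Array weights, which called 3.47% of all probe sets, gave 8 calls among the neighbours and 2 among the corepressors, and each of the other alternatives run gave 0; the cause was not tested. Small uncalled AngII effects changed sign. For 1426558_x_at in KO it was −0.007 with equal medians, −0.01 with repeated quantile normalization, −0.009 with the replicate block, and −0.12 to 0.20 with arrays left out; averaged, 0.029 with array weights and −0.12 to 0.035 with arrays left out. For 1429712_at in KO it was 0.06 with array weights and −0.11 to 0.10 with arrays left out. For 1427174_at in KO it was −0.035 to 0.18 with arrays left out; averaged, 0.053 with the replicate block, 0.065 with the spike-in block and −0.105 to 0.003 with arrays left out. Setdb1 ranged from −0.15 to 0.002 with arrays left out. Title numbers gave no sign of pairing: deviations from group means correlated from −0.355 to 0.103 in 10 same-numbered pairs and from −0.309 to 0.311 in 27 others. In groups of 2 arrays the deviations are mirror images, so pairing is not excluded. The replicate block changed no call. High spike-in arrays alone give no KO AngII value, so no averaged or interaction value. Where a group keeps 1 array, that array is assumed to vary like the others.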

Other observations

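The choice of probe sets affects how much of the genotype difference of the 6 is seen. Of the 6 probe sets, 1 carries a single gene symbol, so an analysis kept to probe sets with 1 symbol would hold Zfp931 and none of the other 5. Over the array, 932 probe sets carry several symbols. Of these, 10 had every KO array below every WT array, 5 of them members, and 7 had every KO array above every WT array. Among the 2441 probe sets with the suffix _x_at, 3 of them members, the counts were 27 and 18. Of all 45037 probe sets, 276 (0.613%) and 370 (0.822%) did so. Since the genotype contrast chose members, nothing is read from these counts.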
